A study of Saccharomyces cerevisiae with 22 samples.

Results

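The meiosis and sporulation genes examined here were 37 named genes of budding yeast, from regulators of entry into meiosis to enzymes of the spore wall. They were chosen as a list of gene symbols and not by a rule on their measured values, but earlier results of these data were known. All 37 were found in the annotation of the array, among 6373 features in all. Meiosis in yeast starts when a diploid cell is starved: Ime1 then switches on early genes for recombination and chromosome pairing, and Ndt80 later switches on the genes of the divisions and of spore formation. In cells that grow on glucose these genes are held largely silent, the early ones by Ume6, which brings the histone deacetylase Rpd3 in its large form, Rpd3L, to their promoters. A smaller form, Rpd3S, acts in gene bodies that Set2 has methylated, and the nuclear exosome and the early termination pathway remove unstable transcripts.

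The values came from 22 arrays of 70-mer probes, each of which compared RNA of a growing mutant culture with RNA of a wild type reference that was common to all arrays. The 12 profiles were *set2*Δ, *eaf3*Δ and *rco1*Δ (the methylase Set2 and the Rpd3S subunits Eaf3 and Rco1), *rrp6*Δ and *lrp1*Δ (nuclear exosome), *rtt103*Δ, *pcf11-2* and *pcf11-ts2* (late termination), *sen1-1* (the helicase of early termination), *ctk1*Δ (the kinase of serine 2 of the polymerase tail) in SC, *rpb1-S2A* (polymerase with that serine replaced by alanine) in YPD, and *ctk1*Δ once more in YPD. The 18 SC arrays come from cells in synthetic complete medium and the 4 YPD arrays from cells in rich medium, and the medium of the reference is not named. The strains with *sen1-1*, *pcf11-2* and *pcf11-ts2* are temperature-sensitive alleles of essential genes, grown with the deletion strains at a temperature they tolerate.

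There were 2 arrays for each of 10 profiles, replicate a with the mutant in Cy3 and replicate b with it in Cy5, and 1 array for each *pcf11* allele, which was assumed to vary like the others. All values below are log2 ratios of mutant over reference unless said otherwise, and a gene is called raised or lowered in a profile where limma's Benjamini-Hochberg adjusted p, over all 6373 features, was under 0.05 and the fold change over 1.7. The reference was 1 control sample, so its own spread is not in the tests and precision is limited by the number of arrays. The deleted gene lay between −4.06 and −2.46 in its own profile, *PCF11* at −0.99 and −1.24 in its alleles, *SEN1* at 0.28 in *sen1-1* and *RPO21*, the gene mutated in *rpb1-S2A*, at −1.97. The strain label is BY4742 for every sample, while the sample name of *rpb1-S2A* carries matA and the study's strain list derives *sen1-1*, both *pcf11* alleles and *rpb1-S2A* from BY4741, a MATa strain. All 7 a-specific genes were raised and all 4 alpha-specific genes were lowered in *pcf11-2*, *pcf11-ts2*, *sen1-1* and *rpb1-S2A*, by medians of 3.04 to 3.41 for the a-specific genes. In these 4 profiles a difference in mating type from the reference and the mutation itself cannot be told apart. Robotic RNA extraction was named for *eaf3*Δ, *rco1*Δ, *ctk1*Δ in SC, both *pcf11* alleles, *sen1-1* and array b of *rpb1-S2A*. The standard protocol was named for the rest.

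The genes were dim but mostly above background. In the reference channel the median signal of a gene was 2.05 times its local background for these 37 genes, against 10.6 for all features, and 48.6% of the 37 genes lay under 2 times background, against 10.9% of all features. Still, 1498 of 1628 readings exceeded background by 2.6 SD, and 25 genes did so in both channels of all 22 arrays. Control spots of the array design, outside the gene probes, gave medians of 1.01 (Cy5) and 1.04 (Cy3) times background. *SPR6*, a sporulation gene without a known function, was the brightest, at 10.5 to 70.9 times background in the mutant channel and 9.08 to 62.7 in the reference over the 22 arrays, followed by *IME1* with medians of 9.90 in the mutant channel and 12.2 in the reference. At the other end, *MEI5*, which assists the recombinase Dmc1, had medians of 1.16 in the mutant channel and 1.13 in the reference. *MEK1*, *SPS2*, *HOP2*, *REC114* and *MER1* were likewise under 1.5 times background in the median of either channel. For these 6 genes a log2 ratio near 0 was not a measurement of equal levels. Both channels lay at background on every array of a profile for 8 of 444 gene and profile pairs, and 1 channel did so for 21 more, and none of these 29 pairs was called. In bulk RNA, fewer cells with a transcript and less of it per cell cannot be told apart.

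**Figure D1:**
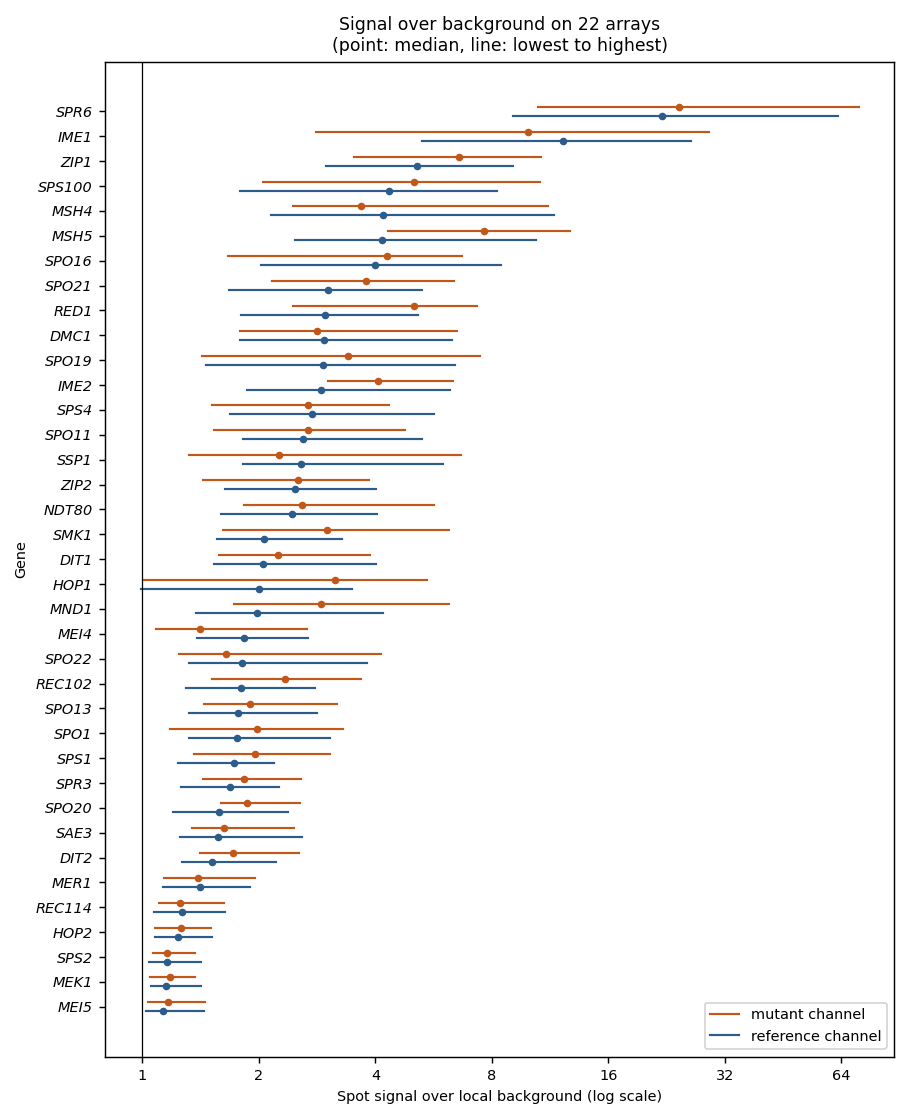
Spot signal over local background (log axis) of the 37 genes in the mutant channel (orange) and the reference channel (blue) on 22 arrays. Points are medians and lines run from the lowest to the highest array, with *SPR6* and *IME1* at the top and *MEI5* at the bottom, at a median of 1.16 in the mutant channel and 1.13 in the reference.

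Of the 37 genes, 11 were called in at least 1 profile, 6 of them raised and 6 lowered in at least 1, and 26 were called in none. The 11 made up 29.7% of the set, while 21.3% of all features were called in at least 1 profile. Of 444 pairs of a gene and a profile, 13 (2.93%) were raised and 9 (2.03%) lowered, against 3.39% and 1.47% of the pairs of all features. The median over the 37 genes lay between −0.06 and 0.09 in every profile, while that of all features lay between −0.01 and 0.01. In *set2*Δ 0 genes were raised and 2 lowered, with 1.35% of all features raised and 0.267% lowered. For *eaf3*Δ the counts were 0 raised and 1 lowered (0.549% and 0.235% of all features). The *rco1*Δ profile also had 0 raised and 1 lowered (0.769% and 0.141%). In *rrp6*Δ 0 genes were raised and 1 lowered (1.63% and 0.596% of all features), while *lrp1*Δ had no call (0.973% and 0.282%). In *rtt103*Δ 0 were raised and 2 lowered (0.126% and 1.15%). Neither *pcf11* allele had a call, with 5.54% of all features raised and 2.09% lowered in *pcf11-2* and 3.17% and 0.863% in *pcf11-ts2*. These counts of 0 are limma's. At adjusted p alone, with no fold minimum, 3 to 10 genes were higher and 4 to 9 lower in each of the 8 profiles named so far. Over these 8 profiles together 17.2% of the pairs of the set were higher and 17.2% lower, against 12.8% and 11.4% of the pairs of all features.

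The raised genes lay in the remaining profiles. In *sen1-1* 3 genes were raised and 1 lowered, with 5.21% and 1.29% of all features. In *ctk1*Δ in SC 4 were raised and 1 lowered (7.28% and 2.84% of all features), in *ctk1*Δ in YPD 3 and 0 (6.79% and 2.70%), and in *rpb1-S2A* 3 and 0 (7.23% and 5.16%). With the offset of 10, which shrinks the ratios of dim spots less, 36 pairs (8.11%) were raised and 27 (6.08%) lowered, the 22 above among them, against 4.62% and 2.26% of the pairs of all features. They lay on 20 genes, 54.1% of the set, while 30.3% of all features were then called in at least 1 profile. As shares of the 37 genes, with the offset of 50, 8.11% to 10.8% were raised in these 4 profiles, against 5.21% to 7.28% of all features. The 7 profiles with 1 lowered gene or more had 2.70% or 5.41% of the set lowered, above the share of all features except in *ctk1*Δ in SC, each on 1 or 2 genes. With the 4 profiles of changed mating type markers left out, 7 pairs were raised and 8 lowered in 8 profiles. All 7 raised pairs lay in *ctk1*Δ in SC (10.8% of the set, 7.28% of all features) and in YPD (8.11% and 6.79%). No share of all features pooled over these 8 profiles was computed. In single profiles among these 8, 0.126% (*rtt103*Δ) to 7.28% (*ctk1*Δ in SC) of all features were raised. The lowered share ran from 0.141% (*rco1*Δ) to 2.84% (*ctk1*Δ in SC).

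**Figure D2:**
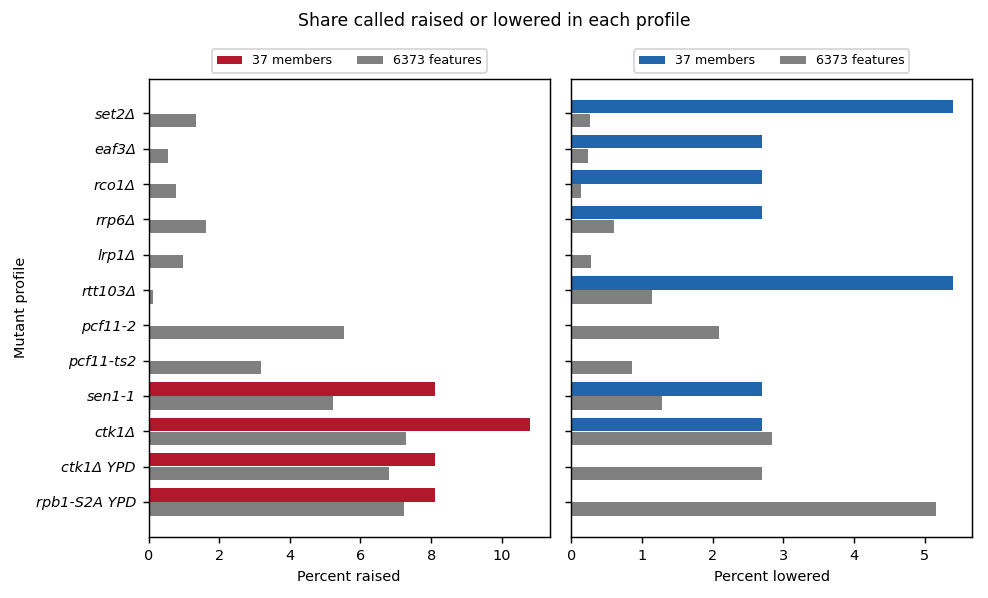
Percent of the 37 genes (coloured bars) and of all 6373 features (grey bars) called raised (left) or lowered (right) in each of the 12 profiles. The 37 genes have raised members only in *sen1-1*, both *ctk1*Δ profiles and *rpb1-S2A*, where the grey bars reach 5.21% to 7.28%.

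**Figure D3:**
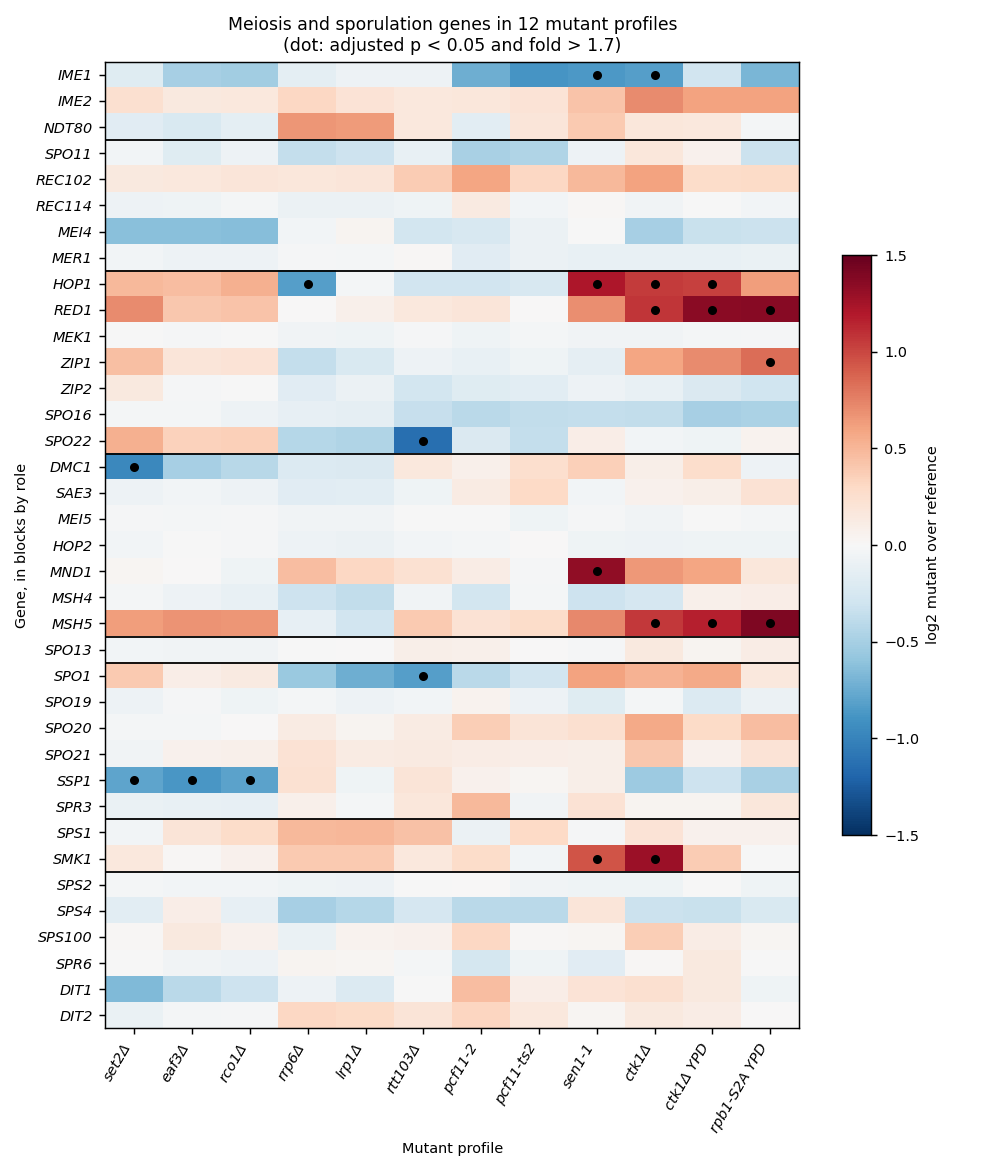
Log2 ratio of mutant over reference (colour, red higher in the mutant, blue lower) of the 37 genes in 12 profiles, in blocks by role, with a dot where a gene was called. The 22 dots lie on 11 genes, and the palest bands include *MEI5*, *MEK1*, *HOP2* and *SPS2*, which lay near background.

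Among the regulators, *IME1* was lower, not higher, where it changed. Its log2 ratios were −1.05 and −0.68 on the *sen1-1* arrays, a fitted −0.86 (standard error 0.22, adjusted p = 0.00528). They were −0.86 and −0.81 in *ctk1*Δ in SC, a fitted −0.83 (standard error 0.22, adjusted p = 0.00549). Both were called, but neither passed when the array a of *sen1-1* or the array b of *ctk1*Δ was left out, at −0.75 (adjusted p = 0.107) and −0.77 (adjusted p = 0.0871). The *pcf11* arrays gave −0.65 for *pcf11-2* and −0.96 for *pcf11-ts2* (adjusted p = 0.0892 and 0.0686 for the fitted values of −0.74 and −0.88), and *rpb1-S2A* gave −0.85 and −0.52 (adjusted p = 0.0155, fold 1.61). *IME1* was also the regulator whose replicates disagreed most: the arrays read −0.97 and −0.01 in *eaf3*Δ and −0.84 and −0.22 in *rco1*Δ. Its fitted value was below 0 in all 12 profiles, which share the reference. Relative to its median over the 12 profiles, *IME1* was −0.35 in *sen1-1* and −0.32 in *ctk1*Δ in SC (limma's adjusted p = 0.233 and 0.279), not called.

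*IME2*, the kinase gene that Ime1 switches on, lay above 0 on each of the 22 arrays, which share the reference. It read 0.73 and 0.70 in *ctk1*Δ in SC, 0.49 and 0.72 in *ctk1*Δ in YPD and 0.73 and 0.48 in *rpb1-S2A*. The fitted values were 0.71, 0.61 and 0.61 (standard error 0.07 each), with adjusted p of 1.33e-06, 6.21e-06 and 4.52e-06 and folds of 1.64, 1.52 and 1.52, under the fold minimum. In *eaf3*Δ it was 0.14, the lowest of the 12 fitted values. Under the alternative ways of processing, *IME2* in *ctk1*Δ in SC ranged from 0.49 to 1.02.

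*NDT80*, the activator of the middle genes, was higher in both exosome mutants, under the fold minimum. It read 0.84 and 0.48 in *rrp6*Δ, where the spots stood at 4.56 and 4.13 times background in the mutant channel and 2.62 and 2.53 in the reference. In *lrp1*Δ it read 0.76 and 0.52. The fitted values were 0.66 (fold 1.58, adjusted p = 4.26e-05) and 0.64 (fold 1.56, adjusted p = 8.93e-05), each with a standard error of 0.08. With an offset of 10 in place of 50 in the background correction they were 0.86 and 0.80, over the fold minimum. The Set2/Rpd3S mutants had −0.17 (*set2*Δ), −0.23 (*eaf3*Δ) and −0.15 (*rco1*Δ), with adjusted p of 0.0768 or more.

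Of 24 repressors and activators of meiotic genes, all measured, 2 were called in at least 1 profile, while 21.3% of all features were. *RME1*, whose product represses *IME1* in haploid cells, was lowered in *ctk1*Δ in SC (−0.79, adjusted p = 2.84e-05) and in *rpb1-S2A* (−1.14, adjusted p = 7.50e-07). *RIM15*, a kinase of nutrient signalling that promotes meiotic entry, was raised in *ctk1*Δ in SC (0.82, adjusted p = 3.33e-08) and in YPD (0.79, adjusted p = 4.03e-08). *UME6* itself lay between −0.38 and 0.04 and *RPD3* between −0.19 and 0.18 in the 12 profiles, without a call.

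The genes of the chromosome axis and of synapsis, the pairing of homologous chromosomes along a protein zipper, held 4 of the 11 called genes among 7 measured. Of all features, 21.3% were called in at least 1 profile. The blocks by role hold 7 genes or fewer, and whether they differ from that share or from each other was not tested. *HOP1* and *RED1* encode axis proteins that act together. *HOP1* read 1.32 and 1.12 in *sen1-1*, with spots at 5.45 and 4.49 times background in the mutant channel and 1.76 and 1.65 in the reference. It read 0.96 and 1.14 in *ctk1*Δ in SC and 0.96 and 1.09 in *ctk1*Δ in YPD. All 6 of these arrays lay above 0.9, and the fitted values were 1.22, 1.05 and 1.03 (folds of 2.32, 2.07 and 2.04). In *rpb1-S2A* it read 0.76 and 0.49 and was not called. In *rrp6*Δ *HOP1* was lowered, with −0.83 and −0.82 (fold 1.77), at 1.53 and 1.42 times background in the mutant channel and 2.48 and 2.36 in the reference. On both *lrp1*Δ arrays the *HOP1* spots stood at 1.00 and 1.02 times background in the mutant channel and 1.01 and 0.99 in the reference. The reference gave signal on the other 20 arrays, so *HOP1* was not measured in *lrp1*Δ and no ratio is read there.

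**Figure D4:**
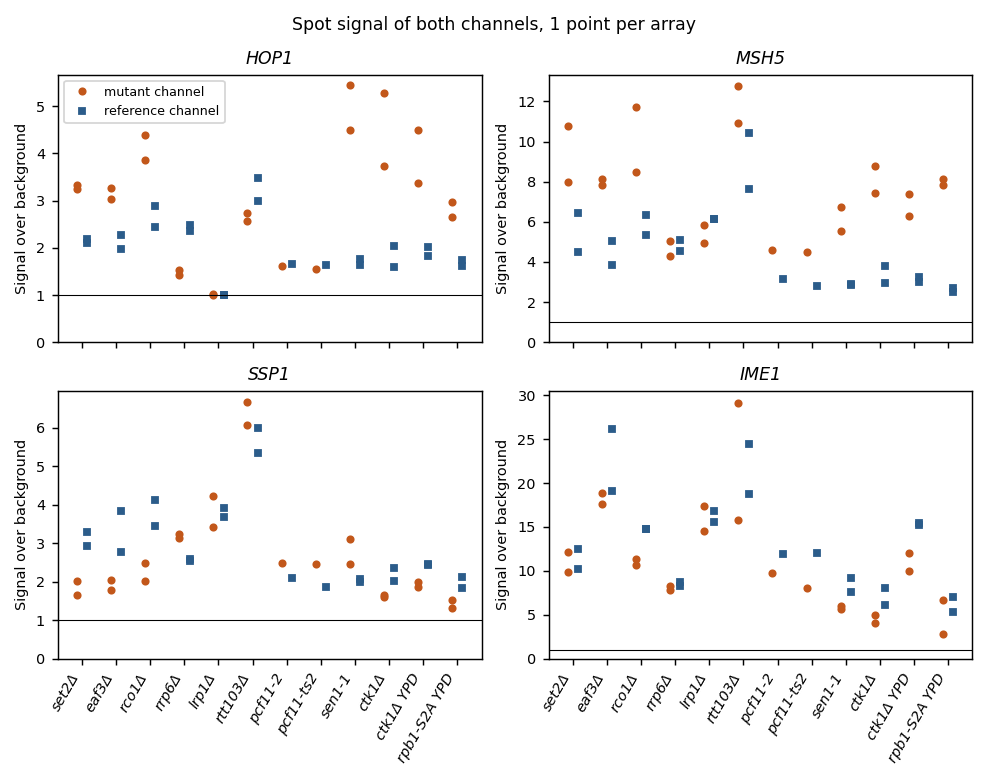
Spot signal over background of *HOP1*, *MSH5*, *SSP1* and *IME1* in the mutant channel (orange) and the reference channel (blue), 1 point per array, with a line at 1. *HOP1* lies on that line in both channels of *lrp1*Δ, and in *sen1-1* its mutant channel stands at 4.49 and 5.45, against 1.65 and 1.76 in the reference channel.

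*RED1* was raised in *ctk1*Δ in both media and in *rpb1-S2A*. The arrays read 1.01 and 1.12 in *ctk1*Δ in SC, 1.09 and 1.63 in *ctk1*Δ in YPD and 1.50 and 1.24 in *rpb1-S2A*. The fitted values were 1.07, 1.36 and 1.37 (standard error 0.11 each), with folds of 2.09, 2.56 and 2.58. It was 0.71 in *set2*Δ (fold 1.64, adjusted p = 0.000496) and 0.69 in *sen1-1* (fold 1.62, adjusted p = 0.000209), under the fold minimum. In *rrp6*Δ, *lrp1*Δ and *pcf11-ts2* it lay within 0.08 of 0.

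*ZIP1*, the central protein of the zipper, was raised in *rpb1-S2A* only, with 1.08 and 0.60 on the arrays and a fitted 0.84 (standard error 0.10, fold 1.79). Without array a of that mutant its value was 0.66, under the fold minimum. In *ctk1*Δ it was 0.59 in SC and 0.71 in YPD, and whether these differ from *rpb1-S2A* was not tested. *SPO22*, which acts in the assembly of the zipper, was lowered in *rtt103*Δ, at −1.15 and −1.11, with spots at 1.66 and 1.55 times background in the mutant channel and 3.80 and 3.34 in the reference. Its fitted −1.13 (standard error 0.05, fold 2.19) was the lowest value of any of the 37 genes. *SPO16*, another gene of zipper assembly, was below 0 in all 12 profiles (−0.49 to −0.03), and *ZIP2* lay between −0.30 and 0.14.

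None of the 5 genes of DNA break formation and its control was called. *MEI4*, whose product is needed for the breaks that start recombination, was the lowest of them. It read −0.70 and −0.56 on the arrays of *set2*Δ, −0.60 and −0.65 on those of *eaf3*Δ, and −0.69 and −0.58 on those of *rco1*Δ. The fitted value was −0.63 in each of the 3 mutants (adjusted p between 6.02e-06 and 1.26e-05, folds of 1.55, 1.54 and 1.55). The spots were dim there, at 1.25 to 1.52 times background in the mutant channel and 1.75 to 2.39 in the reference. Of the 6 mutant readings, 5 exceeded background by 2.6 SD. With the offset of 10 the values were −1.27, −1.22 and −1.17, and *MEI4* was called in all 3. It was then also called in *ctk1*Δ in SC (−1.15), *ctk1*Δ in YPD (−0.79) and *rpb1-S2A* (−0.87). *REC102*, of the same machinery, was above 0 in all 12 profiles (0.15 to 0.60), with the highest value in *ctk1*Δ in SC. *SPO11*, the enzyme that makes the breaks, lay between −0.48 and 0.17.

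Among the 7 genes of strand exchange and crossover, 3 were called. *MSH5*, a subunit of the complex that stabilizes crossover intermediates, had the highest value of the whole set, 1.40 in *rpb1-S2A* (1.47 and 1.33 on the arrays, standard error 0.05, fold 2.64). It was 1.06 in *ctk1*Δ in SC (0.99 and 1.12) and 1.17 in *ctk1*Δ in YPD (1.19 and 1.15). It was 0.63 in *set2*Δ, 0.68 in *eaf3*Δ and 0.66 in *rco1*Δ, with folds of 1.55, 1.60 and 1.58 and adjusted p of 3.31e-06, 3.86e-06 and 4.62e-06. Relative to its median over the 12 profiles, *MSH5* lay at −0.0142, 0.0325 and 0.0142 in these 3 mutants (adjusted p of 0.939, 0.852 and 0.985), and at 0.41 in *ctk1*Δ in SC, 0.52 in *ctk1*Δ in YPD and 0.75 in *rpb1-S2A*, under the fold minimum. Only the exosome mutants had *MSH5* below 0, at −0.12 in *rrp6*Δ and −0.29 in *lrp1*Δ. Its partner *MSH4* lay between −0.37 and 0.10.

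*MND1*, which assists strand exchange with Hop2, was raised in *sen1-1*, with 1.44 and 1.22 on the arrays and a fitted 1.33 (standard error 0.07, fold 2.51). Its spots stood at 6.21 and 4.58 times background in the mutant channel and 1.71 and 1.61 in the reference. In *ctk1*Δ it was 0.65 in SC and 0.59 in YPD, under the fold minimum. *DMC1*, the recombinase of meiosis, was lowered in *set2*Δ, at −1.04 and −0.89 (fitted −0.97, standard error 0.08, fold 1.95, adjusted p = 1.36e-06). It was −0.49 in *eaf3*Δ and −0.41 in *rco1*Δ, not called.

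Later genes, of the prospore membrane that wraps the new nuclei, gave 2 called genes of 6. *SSP1*, a protein at the leading edge of that membrane, was lowered in all 3 of *set2*Δ (−0.76 and −0.82), *eaf3*Δ (−0.80 and −0.95) and *rco1*Δ (−0.86 and −0.76). The fitted values were −0.79, −0.87 and −0.81 (standard error 0.06, folds of 1.73, 1.83 and 1.75), and their mean was −0.82 (standard error 0.03, adjusted p = 1.70e-09). Without array a of *rco1*Δ its value there was −0.71, under the fold minimum. In *ctk1*Δ in SC *SSP1* was −0.55 and in *rpb1-S2A* −0.48, while the other profiles except *ctk1*Δ in YPD (−0.31) lay between −0.06 and 0.23. *SPO1*, a phospholipase-like protein, was lowered in *rtt103*Δ (−0.88 and −0.77, fitted −0.83, fold 1.77). It was −0.73 in *lrp1*Δ and −0.56 in *rrp6*Δ, under the fold minimum, and 0.60 in *sen1-1*.

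Of the kinases of spore differentiation, *SMK1*, a MAP kinase of spore wall assembly, was raised in *ctk1*Δ in SC, at 1.23 and 1.34 (fitted 1.28, standard error 0.05, fold 2.43). It was also raised in *sen1-1*, at 1.00 and 0.89 (fitted 0.95, fold 1.93). In *ctk1*Δ in YPD it read 0.33 and 0.44, below both SC arrays. *SPS1*, the other kinase, had 0.50 in *lrp1*Δ and 0.49 in *rrp6*Δ as its highest values. *SPO13*, a regulator of the first division, lay between −0.05 and 0.15. None of the 6 spore wall and other sporulation genes was called: *DIT1*, of dityrosine synthesis for the spore's outer layer, had the lowest value, −0.67 in *set2*Δ (fold 1.59, adjusted p = 6.11e-06).

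**Figure D5:**
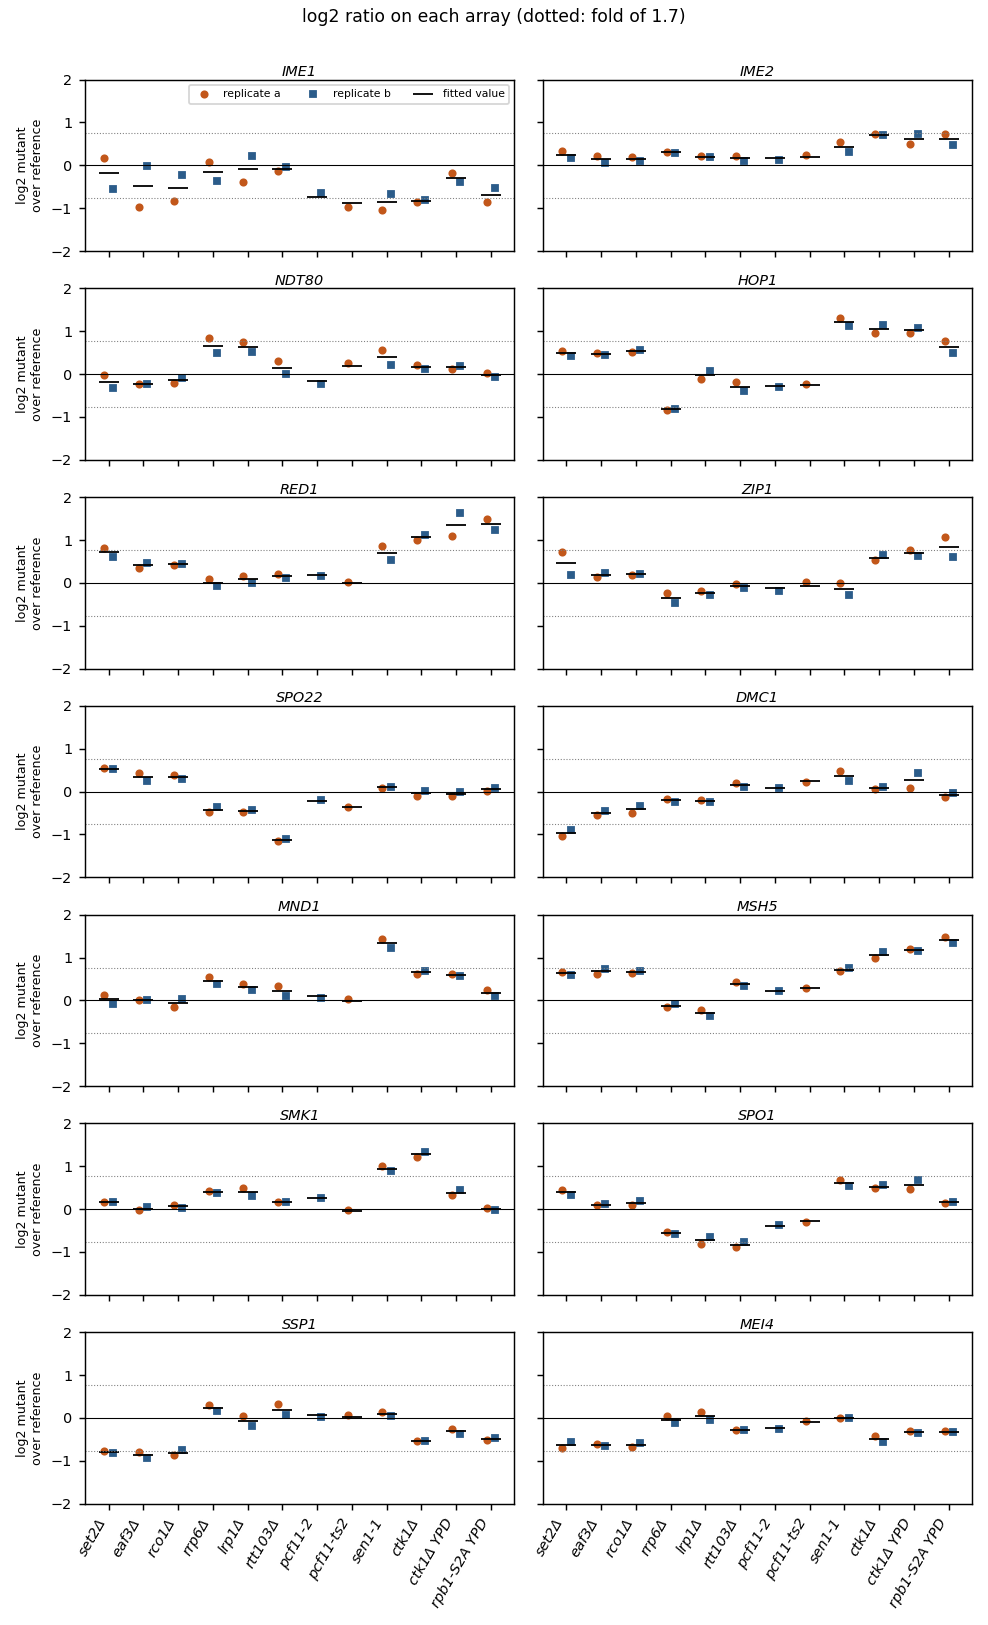
Log2 ratio of mutant over reference on each array for 14 of the genes, replicate a (orange circles) and b (blue squares), with the fitted value as a bar and dotted lines at a fold of 1.7. *SSP1* and *MEI4* are below 0 on all 6 arrays of the Set2/Rpd3S mutants, and *HOP1* above 0.9 on the 6 arrays of *sen1-1* and *ctk1*Δ.

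On the question whether loss of Rpd3S or of the nuclear exosome raised these genes, the means of the mutants gave 1 call, a lowered gene. No mean of the termination mutants over the reference was fitted. Taken singly, *sen1-1* had 3 raised genes (5.21% of all features). The *rtt103*Δ, *pcf11-2* and *pcf11-ts2* profiles had 0 (0.126%, 5.54% and 3.17% of all features). In the mean of the Set2/Rpd3S mutants, *set2*Δ with *eaf3*Δ and *rco1*Δ, 0 of the 37 genes were raised and 1, *SSP1*, lowered, with 0.800% and 0.188% of all features. In the mean of *rrp6*Δ and *lrp1*Δ 0 were raised and 0 lowered (1.26% and 0.345% of all features). For *HOP1* this mean rests in part on *lrp1*Δ, where it was not measured. In *rrp6*Δ alone *HOP1* was lowered, at −0.83. At adjusted p alone, limma's test put 9 genes higher and 10 lower in the first mean, against 1401 and 1253 of the 6373 features, or 51.4% of the set and 41.6% of all features in either direction. In the second, 8 genes were higher (21.6%) and 14 lower (37.8%), against 21.9% and 21.4% of all features. The median over the 37 genes was −0.04 in the first mean and −0.05 in the second.

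The exosome and Set2/Rpd3S mutants differed from each other at 6 of the 37 genes, 2 higher and 4 lower in the exosome mutants (1.49% and 1.21% of all features). The RNA extraction named also differs in part between these groups: robotic for *eaf3*Δ and *rco1*Δ, standard for *set2*Δ, *rrp6*Δ and *lrp1*Δ. Its part in these differences was not tested. *NDT80* (0.83) and *SSP1* (0.91) were higher in the exosome mean. *MSH5* (−0.86), *SPO1* (−0.86), *SPO22* (−0.85) and *HOP1* (−0.92) were lower. The value for *HOP1* rests in part on *lrp1*Δ, where it was not measured. With *rrp6*Δ alone it was −1.32 (adjusted p = 2.48e-07), and the counts were again 2 and 4.

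Among the termination mutants, *sen1-1* exceeded the mean of both *pcf11* alleles at 4 genes and lay below it at 0 (3.44% and 1.80% of all features). These were *HOP1* (1.48, adjusted p = 5.87e-07), *MND1* (1.28, adjusted p = 4.35e-07), *SPO1* (0.94, adjusted p = 2.34e-06) and *SMK1* (0.83, adjusted p = 2.89e-06). These 3 strains had the same shift of mating type markers, with 7 of 7 a-specific genes raised in each. With no fold minimum, 10 genes were higher in *sen1-1* (27.0%) and 2 lower (5.41%), against 18.1% and 15.2% of all features. Between media, *ctk1*Δ in YPD minus *ctk1*Δ in SC gave 0 higher and 1 lower gene (1.52% and 1.22% of all features). That gene was *SMK1* (−0.90, adjusted p = 4.59e-06). The SC and YPD arrays of *ctk1*Δ also differ in the RNA extraction named for them, which cannot be told apart from the medium.

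Genes of the set did not move as a block. The median Pearson correlation of their log2 ratios over the 12 profiles was 0.04 for 666 pairs, and 0.00 for pairs of all features. These values are descriptive, since all profiles share the reference. The most alike were *RED1* and *MSH5* (0.92), *RED1* and *ZIP1* (0.91) and *ZIP1* and *MSH5* (0.90), genes that were high in *ctk1*Δ and *rpb1-S2A*. *HOP1* and *SPO1* also had 0.90, a value that includes *lrp1*Δ, where *HOP1* was not measured. Correlations over 0.9 made up 0.60% of the pairs of the set and 0.26% of pairs of all features. *MEI4* and *SSP1*, low in the Set2/Rpd3S mutants, had 0.89.

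The genes were also set beside their neighbours in the R64 gene table. In 19 of the 37 the next gene upstream lies on the same strand, and in none does a snoRNA gene lie within 2000 bases upstream. Of 20 called pairs with a measured upstream gene, that gene was called in the same direction in 0. At adjusted p alone it moved the same way in 2, both of *HOP1* and *SPO22*, and the other way in 8. *MSH5*, *RED1* and *SMK1* each enter these 8 in more than 1 profile. At that threshold 19.0% of the pairs of all features were higher and 16.7% lower over the 12 profiles. Shares for other neighbouring genes were not computed, and upstream genes on either strand are counted. With the offset of 10, the upstream gene was called in the same direction in 3 of 60 pairs and in the other in 1. Upstream of *IME1* the table lists *IRT1*, a noncoding RNA across its promoter, which was not measured here. *HOP1* and *SPO22* start 647 bases apart and run in opposite directions: in *sen1-1*, *HOP1* was 1.22 and *SPO22* 0.10, and in *rtt103*Δ, *SPO22* was −1.13 and *HOP1* −0.29. In *rrp6*Δ, *HOP1* was lowered at −0.83 and *SPO22* was −0.42 (adjusted p = 5.61e-05), and with the offset of 10 both were called lowered there, at −1.39 and −0.80.

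A further list of meiosis and sporulation genes, 45 of 48 of them measured, had larger single changes. *REC104*, of break formation, was raised by 3.28 in *sen1-1*, 1.53 in *ctk1*Δ in SC, 1.00 in *ctk1*Δ in YPD and 1.89 in *rpb1-S2A*. *NDJ1*, of telomere movement in meiosis, was raised in *sen1-1* (1.85). *SSP2*, which activates Smk1, was raised in *rtt103*Δ (1.49), *rpb1-S2A* (1.47), *pcf11-2* (1.12), *pcf11-ts2* (0.98) and *ctk1*Δ in SC (0.85). *HFM1*, a crossover helicase, was lowered in *rrp6*Δ (−1.42), *lrp1*Δ (−1.28), *rtt103*Δ (−1.07) and *pcf11-2* (−0.95), and *CDA1*, a chitin deacetylase of the spore wall, was raised in *pcf11-2* (1.27). No profile had more than 4 of the 45 raised or more than 1 lowered, and their median lay between −0.04 and 0.11. Of all features, 0.126% to 7.28% were raised and 0.141% to 5.16% lowered in a profile.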

How the data were processed

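RNA of 12 mutant profiles was measured on 22 dye-swapped 2-colour arrays, 2 per profile except for 2 profiles with 1. The authors deposited the scanner's spot and local background intensity without normalization, and also log2 ratios per spot that they had normalized and corrected for dye bias with limma (version 2.12.0 is named for some arrays). The scanner values were used, and the processed ratios only as an alternative, after 6 of their columns were turned round to mutant over reference by comparison with the scanner values; column medians lay between −0.013 and 0.0387. With limma 3.58.1 in R 4.3.3, background was corrected by normexp (offset 50), which shrinks ratios of dim spots, and arrays were normalized by loess over 12776 gene spots. The 2 spots of a probe, then probes of a gene, were averaged to 6373 features. Symbols come from the platform annotation (1062 probes have none), updated through the R64 gene table (58 changed). The model had a coefficient per profile and a dye term, which is also the replicate block, with 9 residual degrees of freedom. Contrasts came from the same fit. A check on simulated independent noise covered only changes added to *ctk1*Δ in SC, not the contrasts or the profiles with 1 array. Median spot signals were 272 to 1541 in the mutant channel and 208 to 1636 in the reference, and 2.6 SD above background was passed by 93.2% to 99.5% of features.

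The 37 genes, the other gene lists and the tests were chosen with earlier results of these data known. Named are all genes called in a profile, *IME1*, *IME2* and *NDT80*, and of the other lists up to 5 called genes with the largest ratio; further genes of the set were named after their values were seen. Where the dye term also blocks replicates, letters a and b were checked: the differences b minus a correlated between profiles from −0.36 to 0.76, so only the dye, not the culture, is taken as shared. Alternatives were another offset, no background correction, median centring, the processed ratios, no dim features, no dye term, gene centring over the profiles, no fold minimum, SC arrays only and each array left out; 1 more was added after seeing the data. A planned search for promoter motifs was not run, since no promoter sequence was used here.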

Additional observations from a re-analysis of the deposited data

Results flagged for a closer look

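Differences between groups of mutants passed limma's test of the difference itself in 11 instances among the 37 genes. Between the exosome mean of *rrp6*Δ and *lrp1*Δ and the mean of *set2*Δ, *eaf3*Δ and *rco1*Δ, they were *NDT80* (0.83), *SSP1* (0.91), *HOP1* (−0.92), *SPO22* (−0.85), *MSH5* (−0.86) and *SPO1* (−0.86). The RNA extraction named differs in part between these groups, and its part was not tested. For *NDT80*, *SSP1*, *SPO22*, *MSH5* and *SPO1*, both arrays of *rrp6*Δ lay on the other side of 0 from the fitted values of *set2*Δ, *eaf3*Δ and *rco1*Δ. Between *sen1-1* and the mean of both *pcf11* alleles, which have 1 array each, they were *HOP1* (1.48), *MND1* (1.28), *SPO1* (0.94) and *SMK1* (0.83). Between *ctk1*Δ in YPD and *ctk1*Δ in SC it was *SMK1* (−0.90). *HOP1* in *lrp1*Δ lay at background in both channels, and the cause of that was not tested.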

How the results depend on the processing

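The 22 called pairs kept their direction under every alternative that was run, and the counts of called genes changed most with the offset and with the fold minimum. With an offset of 10, the counts of raised and lowered genes were 1 and 4 in *set2*Δ, 1 and 2 in *eaf3*Δ, 0 and 2 in *rco1*Δ, 1 and 3 in *rrp6*Δ, 1 and 1 in *lrp1*Δ, 3 and 2 for *pcf11-2*, 0 and 2 for *pcf11-ts2*, 7 and 1 in *sen1-1*, 9 and 3 in *ctk1*Δ in SC, 7 and 1 in *ctk1*Δ in YPD and 6 and 4 in *rpb1-S2A*. Over the 12 profiles 8.11% of the pairs of the set were then raised and 6.08% lowered, against 4.62% and 2.26% of the pairs of all features, and the share of the set exceeded that of all features in 9 profiles for raised and 11 for lowered genes. By profile, 0.188% to 10.4% of all features were raised with that offset and 0.345% to 8.22% lowered. In *sen1-1*, 7 genes were then higher and 0 lower than in the *pcf11* mean (4.90% and 2.51% of all features). The counts were 0 and 3 in the mean of the Set2/Rpd3S mutants (1.15% and 0.361% of all features). They were 2 and 1 in the exosome mean (1.84% and 0.502%). With no fold minimum they were 10 and 4 in *set2*Δ, 4 and 5 in *eaf3*Δ, 5 and 4 in *rco1*Δ, 9 and 9 in *rrp6*Δ, 7 and 8 in *lrp1*Δ, 5 and 7 in *rtt103*Δ, 8 and 9 for *pcf11-2*, 3 and 5 for *pcf11-ts2*, 14 and 5 in *sen1-1*, 16 and 8 in *ctk1*Δ in SC, 11 and 7 in *ctk1*Δ in YPD and 13 and 7 in *rpb1-S2A*. These were 23.6% and 17.6% of the pairs of the set, against 19.0% and 16.7% of the pairs of all features. For the means and differences they were 9 and 10 (Set2/Rpd3S), 8 and 14 (exosome), 9 and 10 (exosome minus Set2/Rpd3S), 10 and 2 (*sen1-1* minus *pcf11*) and 1 and 4 (*ctk1*Δ, YPD minus SC). With each gene centred on its median over the profiles, lowered genes numbered 1 in *set2*Δ, 0 in *eaf3*Δ and in *rco1*Δ, 2 in *lrp1*Δ, 0 in *sen1-1* and 0 in *ctk1*Δ in SC, and raised genes 1 each in *sen1-1* and in *ctk1*Δ in SC and YPD. *MSH5* in *set2*Δ, not called, then was −0.0142, against 0.63 without the centring. The processed ratios gave 1 lowered gene each in both *pcf11* alleles and *rpb1-S2A* and 0 in *ctk1*Δ in SC. Without dim features, which left 25 of the 37 genes, 0 were lowered in *rrp6*Δ and 1 in *rtt103*Δ, 2 were lower in the exosome minus Set2/Rpd3S difference and 2 higher in *sen1-1* minus *pcf11*, where fewer genes were tested. No background correction gave 1 lowered gene in *lrp1*Δ, and median centring gave 5 raised in *sen1-1*. The cause was not tested for the other changes. *HOP1* in *lrp1*Δ, not measured there, turned to 0.0128 with the offset of 10 and to 0.00766 with the processed ratios.

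Without the replicate block, which here is the dye term, 3 genes were raised and 1 lowered in *sen1-1*, 4 and 1 in *ctk1*Δ in SC, and no call of the 37 genes changed. Nor did one with the SC arrays alone. With each array left out in turn, counts ranged from 0 to 1 for raised genes in *set2*Δ and *rrp6*Δ and for lowered genes in *rco1*Δ, *lrp1*Δ, both *pcf11* alleles, *sen1-1* and *ctk1*Δ in SC. They ranged from 3 to 4 for raised genes in *sen1-1* and in *ctk1*Δ in YPD and from 2 to 3 in *rpb1-S2A*. Values of *HOP1* in *lrp1*Δ ranged from −0.15 to 0.10. Dim spots limit what could be seen: 18 of the 37 genes had a median reference signal under 2 times background, where an offset of 50 shrinks ratios, and 4 of these 18 (*HOP1*, *MND1*, *SPO22* and *SPO1*) were called.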
